A study of Homo sapiens with 36 samples.

Results

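The 7 genes followed here, MYC, MAX, MLX, MXD1, MXD3, MXD4 and MNT, belong to the MYC and MAX network of transcription factors. They were taken by symbol from 54583 genes in each of 3 count tables of MDA-MB-231 cells, an established human cell line of triple-negative breast cancer. All 7 passed the filter on low counts in every table. Each table held 12 libraries of polyA RNA, with 3 in each of 4 groups: solvent alone (DMSO), 10 µM SHP1705, a proteasome inhibitor, and both compounds together. SHP1705 is described in the labels as a stabilizer of the clock repressor CRY2, and all compounds were added from stocks in DMSO, so every group received the solvent. In the first set the inhibitor was 100 nM MG132 for 8 h. In the other 2 sets it was 10 nM carfilzomib for 8 h or 24 h. All groups came from the same line in the same serum-containing medium, and the labels do not say whether the 3 libraries of a group were separate cultures, so p-values measure only the spread between these libraries. The inhibitors differ in dose and were not compared with each other.

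MAX is the hub of this network. It pairs through a basic helix-loop-helix leucine zipper with MYC, which activates transcription at E-box sites (CACGTG) and drives growth and ribosome production, or with the repressors MXD1, MXD3, MXD4 and MNT, which bring SIN3 and histone deacetylases to the same sites. MLX is the hub of a parallel arm. It pairs with the glucose-sensing factors MondoA (MLXIP) and ChREBP (MLXIPL) and also with MXD1, MXD4 and MNT. MYC protein is short-lived and is degraded by the proteasome after ubiquitination, and MXD proteins are typical of cells that leave the cycle, except MXD3, which is expressed in cycling cells. The libraries measure RNA only, so protein levels were not seen.

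The E-box is the site that both arms of the network bind, so promoters of the members were searched for it. RefSeq promoters (build GRCh38.p14) were found for 6 of the 7 members, all except MYC. Within the 250 bases before the RefSeq start, CACGTG was present in MXD4, MNT and MLX. It reads the same on both strands and was in 6.34% of all 35116 promoter windows of that length. Distances below are counted from the RefSeq start, which lies inside the GENCODE gene for MXD4, MNT and MLX. The stretches below hold the E-box in capitals, read 5′ to 3′ on the strand of the gene, and end where the nearest GENCODE exon begins. The MXD4 stretch is chr4:2262295-2262359 on the minus strand, with the E-box 238 bases before the start. The MNT stretch is chr17:2401119-2401310 on the minus strand, with the E-box 193 bases before the start. The MLX stretch is chr17:42566850-42567067 on the plus strand, with the E-box 50 bases before the start.
MXD4: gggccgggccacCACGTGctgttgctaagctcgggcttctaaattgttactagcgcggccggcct
MNT: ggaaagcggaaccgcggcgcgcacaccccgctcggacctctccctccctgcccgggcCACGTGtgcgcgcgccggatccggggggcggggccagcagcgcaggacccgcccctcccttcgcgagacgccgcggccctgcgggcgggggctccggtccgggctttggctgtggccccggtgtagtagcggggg
MLX: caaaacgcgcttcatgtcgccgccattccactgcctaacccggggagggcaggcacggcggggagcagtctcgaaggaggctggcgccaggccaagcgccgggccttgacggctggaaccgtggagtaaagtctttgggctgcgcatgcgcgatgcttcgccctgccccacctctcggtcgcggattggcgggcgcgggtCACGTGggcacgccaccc
A heat shock element, searched on both strands, was in 0.441% of all windows and in none of the members' windows. The antioxidant element core (TGACNNNGC, both strands) was in 10.9% of all windows and, among the members, in MXD1, 208 bases before its RefSeq start. That MXD1 window, chr2:69914859-69915108, lies inside the GENCODE gene. These letters describe the windows only; the files hold no binding data.

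The MG132 libraries held 34191153 to 39251609 counts each. Those of the carfilzomib experiments held 17781035 to 27670810 counts at 8 h and 18864725 to 34008423 counts at 24 h. The line's mesenchymal marker VIM lay between 691 and 1318 CPM (read counts scaled to library size with TMM factors) in all 36 libraries, and the oestrogen and progesterone receptor genes ESR1 and PGR stayed at 0.444 CPM or lower. PER3, a clock gene that CRY proteins repress, checked the labels for SHP1705. In the MG132 set it was 13.8 to 14.7 CPM in the DMSO and MG132 libraries and 3.68 to 5.07 CPM in the SHP1705 and combination libraries. In the carfilzomib set at 8 h the labels went against the data: PER3 was 8.19, 2.06 and 1.55 CPM in the libraries labelled DMSO and 2.25, 9.62 and 7.91 CPM in those labelled SHP1705. HSPA1A, a heat shock gene induced when the proteasome is blocked, was 14559, 23605 and 23242 CPM in the libraries labelled DMSO of that set and 792, 726 and 896 CPM in those labelled carfilzomib. That set is therefore described library by library, at the end. HSPA1A in the MG132 set rose by a log2 change of 6.08 ± 0.13 in the combination against DMSO. It changed by 0.14 ± 0.10 with SHP1705 alone. With MG132 alone, edgeR found no gene at an adjusted p under 0.05, so the label of those libraries was not checked by a response. In the MG132 set the fibroblast gene POSTN, at 0.110 to 0.255 CPM in DMSO, was 28.2 and 29.4 CPM in SHP1705 libraries 2 and 3, 33.6 and 173 CPM in MG132 libraries 1 and 3, and 98.3, 222 and 242 CPM in the combination. The sum of all 9 fibroblast markers was 18.1 to 19.4 CPM in DMSO, 17.7 to 55.1 CPM in SHP1705, 18.0 to 205 CPM in MG132 and 126 to 282 CPM in the combination. CDKN2A, which is deleted in this line, was 0 to 0.0276 CPM in those DMSO libraries and 3.08, 6.85 and 7.58 CPM in the combination, with 5.04 CPM in MG132 library 3.

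Levels between genes can be compared only per length, and here they are CPM per kilobase of the exons that GENCODE 29 lists for a gene. In the DMSO libraries of the MG132 set (mean ± SD, n = 3), MYC led with 29.7 ± 1.09, followed by MLX with 17.6 ± 0.663, MAX with 11.0 ± 0.0521, MXD4 with 6.59 ± 0.163 and MXD3 with 2.03 ± 0.248. MXD1 at 1.32 ± 0.0323 and MNT at 1.27 ± 0.142 came last, and their ranges overlapped, so these neighbours do not differ beyond their spread. At 24 h in the carfilzomib set the DMSO libraries gave 48.3 ± 0.333 for MYC, 16.0 ± 0.254 for MLX, 11.2 ± 0.493 for MAX, 9.46 ± 0.234 for MXD4, 7.25 ± 0.505 for MXD3, 3.53 ± 0.31 for MNT and 1.36 ± 0.225 for MXD1. On this length, MYC was the most abundant member and MXD4 the most abundant antagonist in both sets. The 2 sets differ in time, experiment and depth, which cannot be told apart in the higher MYC, MXD3 and MNT levels of the 24 h DMSO libraries. With the length of the principal transcript in place of all exons, MXD3 moved from the fifth place to the third in the 24 h set (25.2 ± 1.75), above MXD4 (16.5 ± 0.407), and MXD1 and MNT changed places at 8 h.

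On GRCh38 in GENCODE 29, MYC spans chr8:127735434-127741434, MAX chr14:65006174-65102695, MNT chr17:2384060-2401118, MLX chr17:42567068-42573239, MXD1 chr2:69897688-69942945, MXD3 chr5:177301461-177312757 and MXD4 chr4:2247432-2262294. The strand setting of the counting is not given in the sources used here. Exons of other genes cover 22.5% (PRELID1) and 18.0% (RAB24) of the MXD3 exon bases and 18.1% (PSMC3IP) of those of MLX. They cover 12.2% (AC006435.1, antisense) of those of MNT and 4.15% (AL139022.1, antisense) of those of MAX. For MXD1 the share is 3.73% (SNRNP27) and for MXD4 1.13% (MIR4800), and reads at all these places may be split or lost. Of these neighbours, PRELID1 had a log2 fold change of -0.15 ± 0.04 and RAB24 of 0.19 ± 0.08 for the combination in the MG132 set, against -1.72 for MXD3. PSMC3IP had 0.02 ± 0.07, against -0.63 for MLX, and SNRNP27 rose by 0.50 ± 0.05 (edgeR, adjusted p = 9.16e-08), against 1.57 for MXD1.

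The combination of SHP1705 with MG132 moved 6 of the 7 members against DMSO, 4 up and 2 down. MXD1, MYC, MXD4 and MAX rose, MXD3 and MLX fell, and MNT was not called (edgeR's quasi-likelihood test, adjusted p under 0.05). In this comparison 58.8% of the 16591 genes tested were called, so 6 of 7 is read against a background in which most genes moved. Against MG132 alone the same 6 were called (background 57.2%), as they were against SHP1705 alone (background 61.0%). The members' median log2 fold change for the combination against DMSO was 0.62, beside -0.01 for all genes. TMM factors were 0.845 to 0.856 in the combination libraries and 1.05 to 1.07 in the other groups of the set. The combination's changes and CPM values include this scaling, and changes on plain library totals were not tested.

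**Figure D1:**
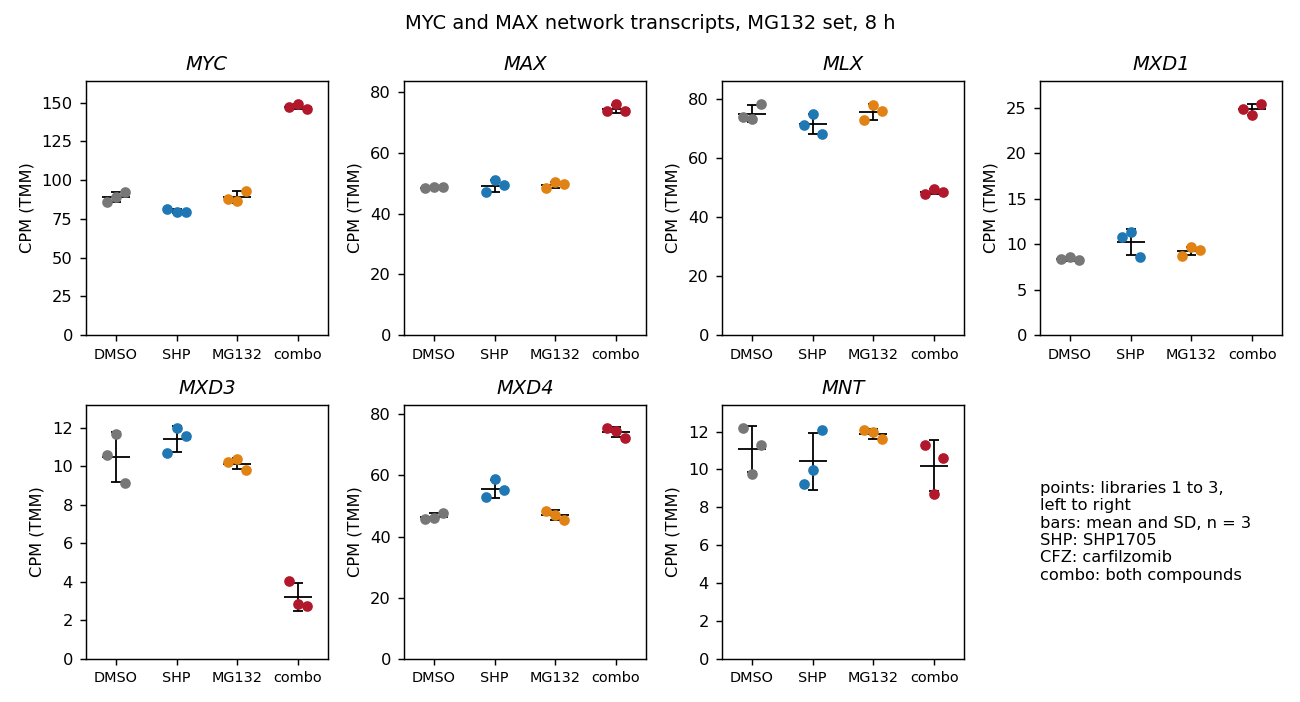
Level of each member in the 12 libraries of the MG132 set, in CPM from 0, with 1 panel per gene. Points are libraries 1 to 3 of each group and bars are the mean and SD (n = 3). The combination stands apart from the other 3 groups for every gene but MNT, above them for MYC, MAX, MXD1 and MXD4 and below them for MLX and MXD3.

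MYC, the activator, was at 86.1, 88.8 and 92.6 CPM in the DMSO libraries, 81.5, 79.2 and 79.1 CPM with SHP1705, 87.6, 86.5 and 93.2 CPM with MG132, and 147, 149 and 146 CPM with both. The combination libraries all lay above the other 9, and the DMSO and MG132 libraries overlapped. Combination and DMSO libraries did not overlap for 63.5% of all genes. The combination was 1.65-fold DMSO, a log2 change of 0.73 ± 0.04 (SE; edgeR, adjusted p = 1.99e-12). MAX, the shared partner, was at 48.3, 48.7 and 48.7 CPM in DMSO, 47.1, 50.9 and 49.4 CPM with SHP1705, 48.3, 50.3 and 49.8 CPM with MG132, and 73.9, 76.0 and 73.6 CPM with both. It stayed within 47.1 to 50.9 CPM in the 9 libraries of the first 3 groups and was 1.53-fold higher than DMSO in the combination (log2 change 0.62 ± 0.04, edgeR adjusted p = 5.17e-11).

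Among the antagonists, MXD1 made the highest rise. Its libraries read 8.33, 8.61 and 8.21 CPM in DMSO, 10.8, 11.3 and 8.60 CPM with SHP1705, 8.73, 9.64 and 9.41 CPM with MG132, and 24.9, 24.2 and 25.4 CPM with both. The combination was 2.96-fold DMSO, with a log2 change of 1.57 ± 0.08 (edgeR, adjusted p = 3.5e-12). MXD3 went the other way, from 10.6, 11.7 and 9.15 CPM in DMSO, 10.7, 12 and 11.6 CPM with SHP1705 and 10.2, 10.4 and 9.81 CPM with MG132 to 4.03, 2.84 and 2.74 CPM with both. Its combination libraries were all below the other 9, 3.29-fold lower than DMSO (log2 change -1.72 ± 0.13, edgeR adjusted p = 4.21e-10). MXD4 rose in 2 steps. It was at 45.6, 46.1 and 47.8 CPM in DMSO, 52.8, 58.7 and 55.3 CPM with SHP1705, 48.5, 47.1 and 45.3 CPM with MG132, and 75.6, 74.7 and 72.3 CPM with both. The SHP1705 libraries lay above DMSO, the combination libraries above SHP1705, and the MG132 libraries overlapped DMSO. Of all genes, 25.9% had no overlap between SHP1705 and DMSO and 64.5% none between the combination and SHP1705. The combination was 1.59-fold DMSO (log2 change 0.67 ± 0.04, edgeR adjusted p = 9.23e-11). MNT held 12.2, 9.75 and 11.3 CPM in DMSO and 11.3, 8.69 and 10.6 CPM in the combination, and the groups overlapped (log2 change -0.12 ± 0.11, edgeR adjusted p = 0.357). Against MG132 alone (12.1, 12 and 11.6 CPM) MNT differed by -0.23 ± 0.11 with adjusted p = 0.0828 in edgeR, and the groups did not overlap, as for 61.4% of all genes. In that comparison MNT was called with no filter on low counts and in 1 fit with a library left out.

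MLX, the hub of the other arm, fell. It was at 73.8, 73.1 and 78.3 CPM in DMSO, 71.2, 75.0 and 68.3 CPM with SHP1705, 72.8, 78.1 and 75.9 CPM with MG132, and 47.8, 49.4 and 48.5 CPM with both, 1.55-fold lower than DMSO (log2 change -0.63 ± 0.04, edgeR adjusted p = 2.44e-10). MAX and MLX, the hubs of the 2 arms, thus changed in opposite directions in the same libraries. Of its partners, MLXIP rose by a log2 change of 0.30 ± 0.06 and MLXIPL, at 0.248 to 0.549 CPM in the DMSO and combination libraries, was too low to describe. The paired arrestin genes that MLX with MondoA is known to activate split: TXNIP went from 563, 568 and 561 CPM in DMSO to 246, 252 and 247 CPM (log2 change -1.18 ± 0.02) and ARRDC4 from 7.95, 9.72 and 10.2 CPM to 24.2, 24.1 and 21.8 CPM (1.33 ± 0.09), both called.

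MG132 alone left all 7 members within 0.14 log2 units of DMSO. None was called, none had an unadjusted p under 0.05, and DESeq2 also called none. The background was 0% in edgeR, with 1574 of 16591 genes at an unadjusted p under 0.05, while DESeq2 called 75. SHP1705 alone gave 2 calls against a background of 7.53%: MXD4 rose by 0.26 ± 0.04 on the log2 scale (edgeR, adjusted p = 0.00165) and MYC fell by 0.16 ± 0.04, a log2 change of -0.16 (edgeR, adjusted p = 0.0143). MXD1 stood at 0.29 ± 0.09 with adjusted p = 0.0515 in edgeR and was called by DESeq2 (adjusted p = 0.0309), and its groups overlapped at 1 library. The MYC call was lost without DMSO library 2 (-0.16, adjusted p = 0.0509), DMSO library 3 (-0.13, adjusted p = 0.0809), SHP1705 library 2 (-0.15, adjusted p = 0.0548) or SHP1705 library 3 (-0.15, adjusted p = 0.052), all in edgeR.

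The interaction, the part of the combination's log2 change that the sum of both single changes leaves over, was called for the same 6 members (background 48.9%). It was 0.88 ± 0.05 for MYC, 0.57 ± 0.06 for MAX, 1.13 ± 0.12 for MXD1, 0.40 ± 0.06 for MXD4, -1.79 ± 0.16 for MXD3 and -0.57 ± 0.06 for MLX, with the highest edgeR adjusted p at 2.21e-05 for MXD4. For MYC the interaction exceeds the combination's own change, since SHP1705 alone was below DMSO. For MXD4 it was smaller than the combination's change of 0.67 ± 0.04, since SHP1705 alone was above DMSO.

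POSTN and the other fibroblast markers moved with the combination, and so did CDKN2A. MG132 library 3, with more POSTN (173 CPM) than combination library 1 (98.3 CPM), had MYC at 93.2, MXD1 at 9.41, MXD3 at 9.81 and MLX at 75.9 CPM, whereas combination library 1 had 147, 24.9, 4.03 and 47.8 CPM. These are single libraries, and the part of RNA from other cells in the members' changes was not tested. Leaving out the 4 libraries of the single-compound groups with over 100 POSTN counts left 1 SHP1705 and 1 MG132 library, which are assumed to vary like the other groups. The same 6 members were then called for the combination against MG132, with MYC at 0.77 and MXD3 at -1.70, and against SHP1705, with MYC at 0.86 and MXD3 at -1.75. The combination against DMSO uses none of the 4, and its libraries, which held POSTN in all 3 cases, could not be left out, so that comparison has no such check. The SHP1705 calls were lost: MXD4 was 0.18 with adjusted p = 0.162 and MYC -0.13 with adjusted p = 0.29 in edgeR. The SHP1705 library that remained, with POSTN at 0.267 CPM, had MXD4 at 52.8 and MYC at 81.5 CPM, both outside the DMSO range on the same side as the other 2.

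**Figure D2:**
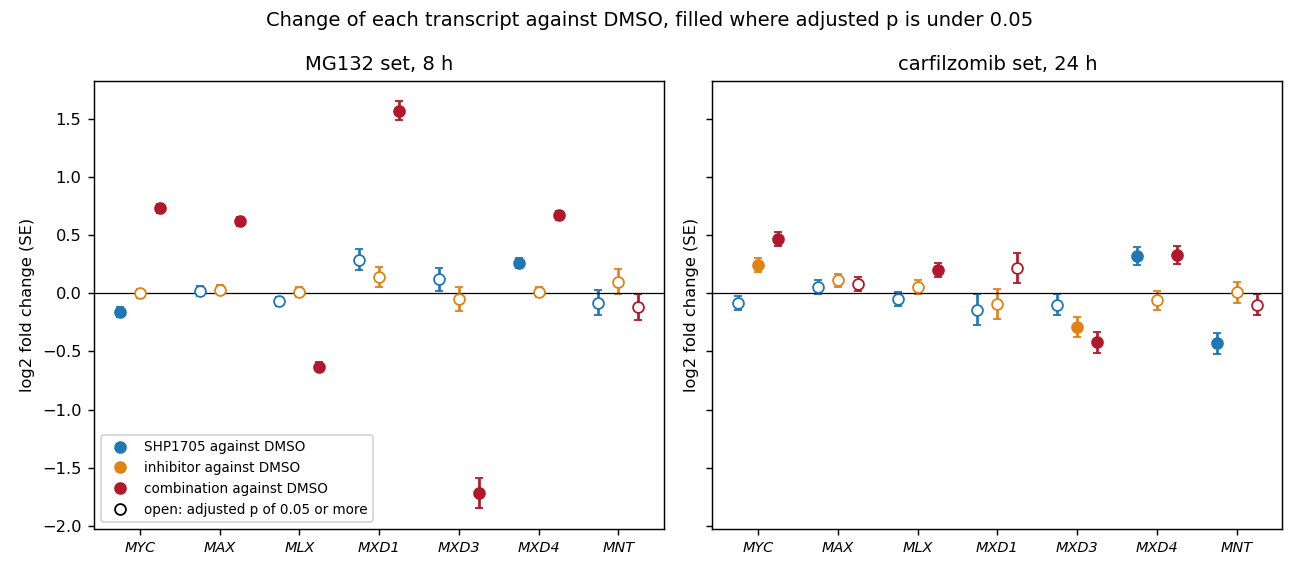
Log2 fold change against DMSO with its standard error for each member, for SHP1705, the inhibitor and the combination, in the MG132 set at 8 h and the carfilzomib set at 24 h. Filled points have an adjusted p under 0.05. In the MG132 set the combination's points lie far from 0 for 6 genes and the inhibitor's all lie near 0. At 24 h all points lie within 0.47 log2 units of 0.

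After 24 h with carfilzomib the members moved less, and in part the other way. The combination against DMSO gave 4 calls, with MYC, MXD4 and MLX higher and MXD3 lower (background 27.3% of 16183 genes). Carfilzomib alone gave 2, MYC higher and MXD3 lower (background 21.5%), and SHP1705 alone gave 2, MXD4 higher and MNT lower (background 4.46%). MLX, which fell with SHP1705 and MG132 at 8 h, rose here by 0.20 ± 0.06 on the log2 scale, and MAX and MXD1, which rose there, were not called. Inhibitor, dose and time all differ between the 2 sets, and the difference between their combinations was not tested.

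**Figure D3:**
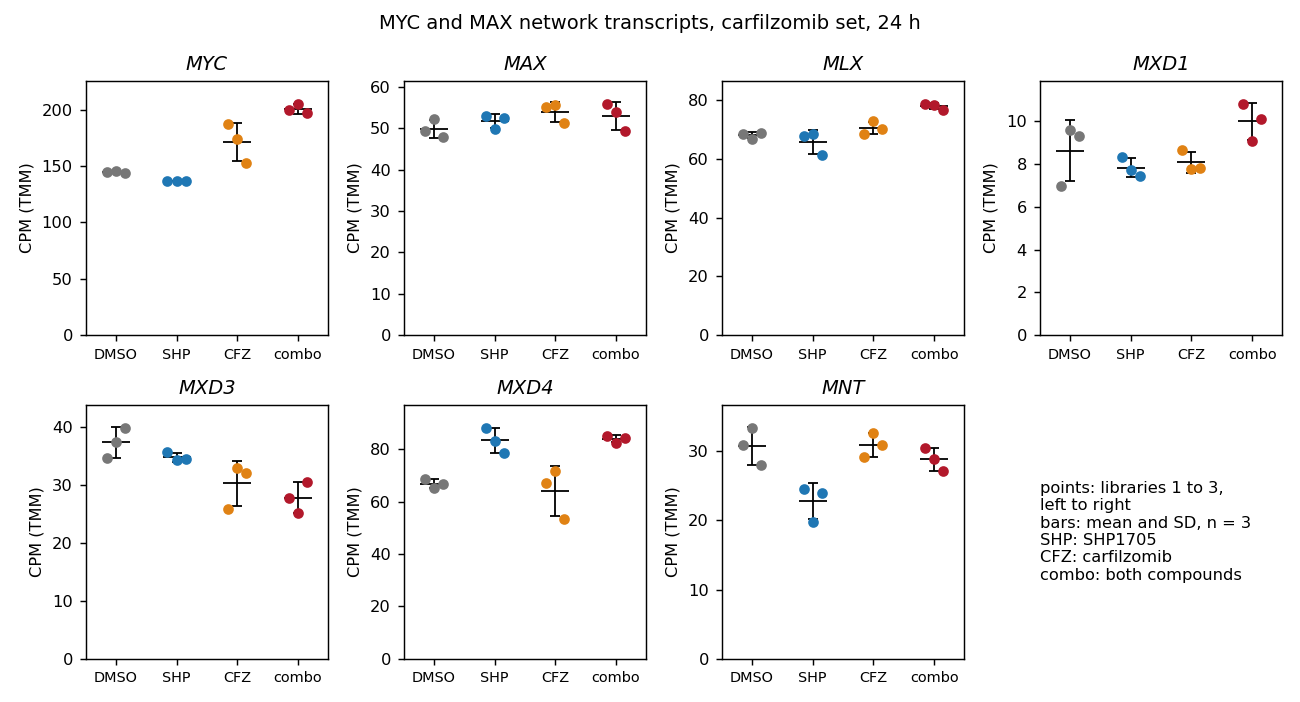
Level of each member in the 12 libraries of the carfilzomib set at 24 h, in CPM from 0, with 1 panel per gene. Points are libraries 1 to 3 and bars are the mean and SD (n = 3). The combination lies above DMSO for MYC, MXD4 and MLX and below it for MXD3, SHP1705 lies below the other groups for MNT, and carfilzomib library 3 lies below the DMSO libraries for MXD4.

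MYC was at 145, 146 and 144 CPM in the DMSO libraries and at 137 CPM in all 3 SHP1705 libraries. It was at 187, 174 and 153 CPM with carfilzomib and 200, 205 and 197 CPM with both. The 4 groups did not overlap, although SHP1705 was not called (-0.08 ± 0.06, edgeR adjusted p = 0.532). Of all genes tested, 24% had no overlap with DMSO for SHP1705, 34.3% for carfilzomib and 44.4% for the combination. Carfilzomib was 1.18-fold DMSO (log2 change 0.24 ± 0.06, edgeR adjusted p = 0.00335) and the combination 1.38-fold DMSO (0.47 ± 0.06, edgeR adjusted p = 1.07e-06). The combination exceeded carfilzomib alone by 0.23 ± 0.06 (edgeR, adjusted p = 0.0108), a call that was lost without combination library 2 (0.21, adjusted p = 0.0554) and in a fit of these 2 groups only (0.23, adjusted p = 0.0517).

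MXD4 followed SHP1705. It was at 68.4, 65.1 and 66.8 CPM in DMSO, 88.1, 83.2 and 78.6 CPM with SHP1705, 67.2, 71.6 and 53.5 CPM with carfilzomib, and 85.0, 82.5 and 84.3 CPM with both. Both SHP1705-containing groups lay above both groups without it, and they overlapped each other. SHP1705 raised MXD4 1.25-fold over DMSO (log2 change 0.32 ± 0.08, edgeR adjusted p = 0.0136) and 1.31-fold over carfilzomib (0.39 ± 0.08, edgeR adjusted p = 0.00192). Without DMSO library 2 (0.30), DMSO library 3 (0.32) or SHP1705 library 1 (0.28), the first of these was no longer called, with edgeR adjusted p = 0.0779, 0.0516 and 0.0682. The rise in the MG132 set at 8 h came from separate libraries with their own DMSO controls. The difference between the 24 h and 8 h responses of MXD4 was 0.06 ± 0.16, with a 95% interval from -0.25 to 0.37. No member's response to SHP1705 was called different between these 2 sets in edgeR or DESeq2, and none had an unadjusted p under 0.05 (background 0.0230%). This lack of calls says little, since the joint fit takes its spread from all 36 libraries, the mixed 8 h carfilzomib groups included. Even PER3, at -1.60 ± 0.09 with SHP1705 in the MG132 set and -4.34 ± 0.17 at 24 h in the separate fits, had a standard error of 0.71 there and an edgeR adjusted p of 0.589.

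MNT responded to SHP1705 at 24 h: it was at 30.9, 33.4 and 28.0 CPM in DMSO, 24.6, 19.8 and 24.0 CPM with SHP1705, 29.2, 32.7 and 30.9 CPM with carfilzomib, and 30.5, 28.9 and 27.1 CPM with both. The SHP1705 libraries were below the other 9, 1.35-fold lower than DMSO (log2 change -0.43 ± 0.09, edgeR adjusted p = 0.00377), and the combination was 0.34 ± 0.09 above SHP1705 (edgeR, adjusted p = 0.00635). That last call was lost without SHP1705 library 2 (0.25, edgeR adjusted p = 0.0531). MXD3 was at 34.7, 37.5 and 39.9 CPM in DMSO, 35.7, 34.3 and 34.5 CPM with SHP1705, 25.8, 33.0 and 32.1 CPM with carfilzomib, and 27.7, 25.2 and 30.6 CPM with both. It fell in the combination by 0.42 ± 0.09 on the log2 scale (edgeR, adjusted p = 0.000862). With carfilzomib alone it fell by 0.29 ± 0.09 (edgeR, adjusted p = 0.0182), a change of -0.20 and no call without carfilzomib library 1 (adjusted p = 0.111), and no call without DMSO library 2 (-0.29, adjusted p = 0.0557) or 3 (-0.25, adjusted p = 0.0914).

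MLX rose in the combination only slightly, from 68.3, 66.8 and 68.9 CPM in DMSO to 78.6, 78.3 and 76.7 CPM (0.20 ± 0.06, edgeR adjusted p = 0.0104). The carfilzomib libraries, at 68.5, 72.7 and 70.2 CPM, lay between these and overlapped DMSO. MAX remained between 47.9 and 55.8 CPM in all 12 libraries and was called in no contrast of this set. MXD1 was at 6.97, 9.57 and 9.30 CPM in DMSO and 10.8, 9.08 and 10.1 CPM in the combination, with overlapping groups. Against SHP1705 alone (8.31, 7.70 and 7.46 CPM) it was 0.35 ± 0.13 higher at an edgeR adjusted p of 0.0493. DESeq2 (adjusted p = 0.0528) and edgeR without SHP1705 library 1, 2 or 3 or combination library 1 or 3 did not call it (adjusted p from 0.0615 to 0.183). The combination gave 2 calls against carfilzomib (background 9.02%) and 5 against SHP1705 (background 24.2%). No member's interaction was called (background 0.482%), but 4 had an unadjusted p under 0.05, as had 2202 of all 16183 genes. DESeq2 called MYC (0.31, adjusted p = 0.0135, against 0.31 ± 0.08 and adjusted p = 0.08 in edgeR), among 346 of all genes. MYC's interaction was also called in edgeR without carfilzomib library 1 (0.38, adjusted p = 0.0253) or 2 (0.32, adjusted p = 0.0368).

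The level of MYC relative to its antagonists was read per library as MYC over the sum of MXD1, MXD3, MXD4 and MNT, each in CPM per kilobase of exon. This ratio is a description with no test. In the MG132 set it was 2.56, 2.62 and 2.77 in DMSO, 2.21, 1.95 and 2.05 with SHP1705, 2.51, 2.49 and 2.79 with MG132, and 2.93, 3.11 and 3.04 with both. SHP1705 libraries were the lowest 3 and combination libraries the highest 3. At 24 h it was 2.29, 2.23 and 2.19 in DMSO, 1.94, 2.08 and 2.10 with SHP1705, 3.24, 2.69 and 2.74 with carfilzomib, and 2.95, 3.20 and 2.91 with both. SHP1705 libraries were again the lowest 3, and every carfilzomib and combination library lay above DMSO. With principal transcript lengths the MG132 set gave means of 1.69 in DMSO, 1.34 with SHP1705, 1.68 with MG132 and 2.31 with both, in the same order. The antagonist sum itself changed its makeup: in the MG132 set MXD1 went from 11.8 ± 0.21% of it in DMSO to 24.1 ± 0.78% in the combination, and MXD3 from 18.1 ± 2.1% to 3.82 ± 0.75% (SD, n = 3).

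**Figure D4:**
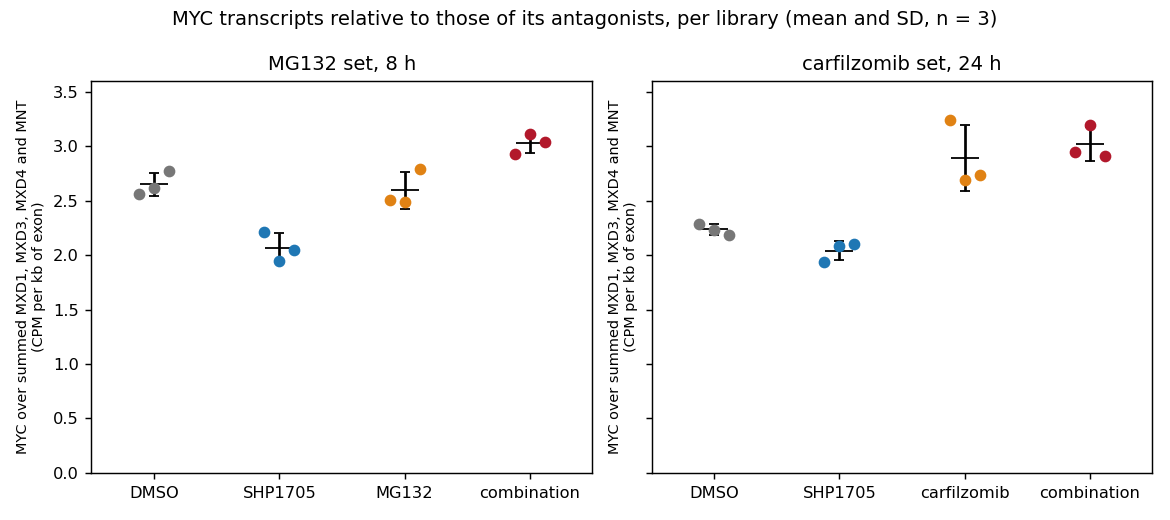
MYC over the sum of MXD1, MXD3, MXD4 and MNT, in CPM per kilobase of exon, for each library of the MG132 set at 8 h and the carfilzomib set at 24 h, with the mean and SD (n = 3). SHP1705 libraries are the lowest in both sets, from 1.94 to 2.21, and combination libraries lie between 2.91 and 3.20.

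The other genes of the network were read in the same comparisons. MYCN had at most 0.0276 CPM in the DMSO libraries of the MG132 set and was not tested, and 5 of the 6 other network genes (MYCL, MXI1, MGA, MLXIP, MLXIPL) were. In the MG132 set the combination raised MLXIP and lowered MGA, a MAX partner of noncanonical repressor complexes (-0.32 ± 0.06). At 24 h the combination lowered MXI1, an MXD repressor, by 0.31 ± 0.09 and MLXIPL by 0.83 ± 0.29. Both of these calls were lost without single DMSO libraries, MXI1 without library 1 (-0.27, adjusted p = 0.0619) or 2 (-0.27, adjusted p = 0.0618) and MLXIPL without library 3 (-0.37, adjusted p = 0.377) in edgeR, and MLXIPL also without any 1 combination library. Of 14 coactivators of MYC, 5 were higher and 2 lower with SHP1705 and MG132, among them CCNT1, a cyclin of the elongation kinase P-TEFb (0.41 ± 0.05), and RUVBL2, a helicase of the TIP60 complex (0.36 ± 0.04). At 24 h 2 were higher and 3 lower, with WDR5, which helps to anchor MYC to chromatin, at -0.32 ± 0.05. Of 10 corepressors, 5 were higher and 3 lower in the MG132 combination, with HDAC1, a histone deacetylase, at -0.22 ± 0.03 and SUDS3, a SIN3 subunit, at 0.47 ± 0.06, and 2 were higher and 2 lower at 24 h. The background for these counts is 58.8% in the MG132 set and 27.3% at 24 h.

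Genes that set the turnover of MYC protein were 4 higher and 7 lower of 15 in the MG132 combination, where 58.8% of all genes were called. SKP2, an F-box protein that ubiquitinates MYC, fell by 1.33 ± 0.05 and AURKA, a kinase that shields MYC proteins from degradation, by 1.25 ± 0.04, while HUWE1, a ubiquitin ligase, rose by 0.64 ± 0.04. AURKA and SKP2 are also genes of dividing cells. At 24 h, with 27.3% of all genes called, 2 of 15 were higher and 4 lower, with the F-box gene FBXO32 at 0.96 ± 0.10 and STUB1, a chaperone-linked ligase, at -0.41 ± 0.07. FBXO32 was also higher with SHP1705 alone in the MG132 set (0.28 ± 0.08) and at 24 h (0.46 ± 0.10).

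Genes known to be induced by MYC did not move in 1 direction with MYC. Of 56 tested, 23 were higher and 21 lower in the MG132 combination, with a median log2 change of 0.03 beside -0.01 for all genes and 58.8% of all genes called. SHMT2, of serine metabolism (0.78 ± 0.03), and the nucleolar NOP58 (0.65 ± 0.03) rose, and LDHA, of glycolysis (-0.45 ± 0.02), and the replication helicase MCM4 (-0.56 ± 0.03) fell. At 24 h 10 were higher and 14 lower in the combination (median -0.03, all genes 0.00, 27.3% of all genes called), among them PTMA at -0.49 ± 0.04, MCM4 at -0.47 ± 0.05 and LDHA at -0.40 ± 0.04. The 10 became 4 or 5 without DMSO library 1 or combination library 1. SHP1705 alone lowered 19 and raised none in the MG132 set (median -0.09, all genes 0.00, 7.53% of all genes called) and lowered 15 and raised none at 24 h (median -0.15, all genes 0.00, 4.46% of all genes called). NCL, a nucleolar protein, was at -0.10 ± 0.03 and -0.26 ± 0.04 in these 2 comparisons, and PTMA at -0.13 ± 0.03 and, not called, -0.13 ± 0.04. The 19 became 1 without the 4 libraries with over 100 POSTN counts and 9 to 14 when 1 library was left out; the 15 became 8 to 15, and 23 in a fit of only the 2 groups compared. DESeq2 also called none higher in either comparison. At an unadjusted p under 0.05, 27 genes of the list were lower in the MG132 set and 30 at 24 h, and none was higher. That threshold was met, in either direction, by 3495 of all 16591 genes in the MG132 set and 2668 of 16183 at 24 h.

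Of 7 genes known to be repressed by MYC, 5 were higher and none lower in the MG132 combination (median 1.12, all genes -0.01), where 58.8% of all genes were called. GADD45A, a stress-induced gene of growth arrest, went from 62.3, 58.8 and 61.9 CPM in DMSO to 158, 159 and 151 CPM (1.36 ± 0.04), and CDKN1A, the inhibitor p21, changed by 0.76 ± 0.03. DESeq2 also called 5 higher and none lower, and none of the 7 had a negative change at an unadjusted p under 0.05. CEBPA and CDKN2B, among the 5, were low, and the median counts such genes like the others, so it is not a measure of the well-expressed ones. CDKN2B, deleted with CDKN2A in this line, was 0 to 0.0552 CPM in DMSO, 0.342, 1.00 and 1.20 CPM in the combination and 0.72 CPM in MG132 library 3, the order of POSTN. NDRG1 changed by 0.17 ± 0.03. At 24 h 2 of the 5 tested were higher and 1 lower in the combination (27.3% of all genes called), with GADD45A at 0.35 ± 0.05 and CDKN1A at -0.20 ± 0.05. CDKN1A rose with SHP1705 alone in both sets, by 0.19 ± 0.03 and 0.30 ± 0.05, and fell with carfilzomib alone (-0.43 ± 0.05). TXNIP and ARRDC4 split at 24 h as they had in the MG132 set, TXNIP at -0.44 ± 0.04 and ARRDC4 at 0.64 ± 0.15 in the combination.

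Likeness of pattern was measured over the 6 changes against DMSO of the MG132 set and the 24 h set, as the root mean square of the log2 differences between a member and each of 10288 genes with a mean of at least 5 CPM in both sets. Contrasts within a set share their DMSO libraries. The nearest genes were ASB6 for MYC (0.062), BLOC1S6 for MAX (0.025), IKBKE for MLX (0.049), ABTB2 for MXD1 (0.095), SAMD10 for MXD3 (0.075), SLC2A3 for MXD4 (0.061) and DYRK2 for MNT (0.072). ASB6 had changes of 0.80 in the MG132 combination and 0.41 in the 24 h combination, beside 0.73 and 0.47 for MYC. SLC2A3, a glucose transporter, had 0.29 and 0.38 with SHP1705 in the 2 sets, beside 0.26 and 0.32 for MXD4. No member was among the 3 nearest genes of another. The closest pairs of members were MYC with MAX and MAX with MXD4, both at 0.192. Many other genes were nearer. MAX ranked 528 of 10287 genes for MYC and 339 for MXD4, and for MAX, MYC ranked 2050 and MXD4 2054.

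In the carfilzomib set at 8 h, groups as labelled mixed libraries of unlike levels. MXD1 was at 16.1, 22.1 and 22.2 CPM in the libraries labelled DMSO, 21.5, 6.85 and 6.50 CPM in those labelled SHP1705, 5.60, 5.58 and 5.98 CPM in those labelled carfilzomib, and 5.19, 15.6 and 12.7 CPM in those labelled combination. SHP1705 library 1 and combination library 1 thus each stood apart from the other 2 of their label, and HSPA1A did too, at 19856, 705 and 693 CPM for SHP1705 and 892, 12020 and 15052 CPM for the combination. MAX showed the same order, with 62.1, 77.8 and 80.4 CPM for DMSO, 76.8, 44.2 and 47.1 CPM for SHP1705, 47.8, 43.7 and 43.1 CPM for carfilzomib, and 41.1, 62.5 and 65.6 CPM for the combination. MXD3 ran opposite, with 12.7, 9.41 and 8.25 CPM for DMSO, 8.05, 21.2 and 22.5 CPM for SHP1705, 26.8, 19.4 and 20.0 CPM for carfilzomib, and 25.8, 12.4 and 12 CPM for the combination. DMSO library 1 also differed from DMSO libraries 2 and 3, in PER3 as given above, in MAX, and in MXD4 at 48.6 against 68.8 and 64.9 CPM.

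**Figure D5:**
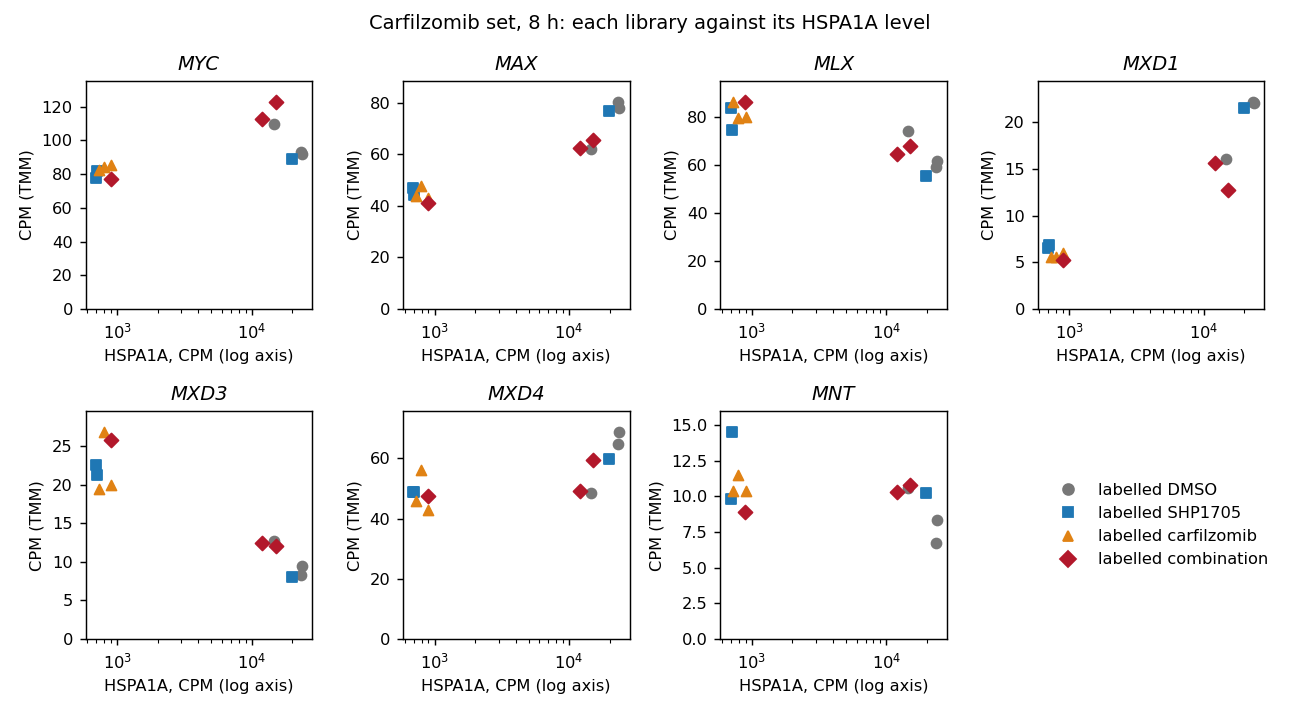
Level of each member in CPM against HSPA1A in CPM (log axis) for the 12 libraries of the carfilzomib set at 8 h, with 1 panel per gene and a marker for each label. The SHP1705 and combination labels each have points at both ends of the HSPA1A axis, which is the same in all panels. At its high end MXD1 and MAX are higher and MXD3 is lower.

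MYC was at 110, 92.2 and 93.3 CPM for DMSO, 89.2, 81.9 and 77.5 CPM for SHP1705, 84.0, 82.5 and 85.7 CPM for carfilzomib, and 76.9, 113 and 123 CPM for the combination. MLX was at 74.1, 61.8 and 59.4 CPM, 55.6, 74.9 and 83.7 CPM, 79.9, 86.5 and 80.3 CPM, and 86.5, 64.6 and 68.0 CPM in the same order of labels. MXD4 ranged from 42.8 to 68.8 CPM and MNT from 6.70 to 14.5 CPM over the 12 libraries. As labelled, carfilzomib against DMSO gave 3 calls (background 23.0% of 15577 genes): MXD3 at 1.13 ± 0.37, MAX at -0.71 ± 0.22 and MXD1 at -1.81 ± 0.46. All 3 were lost when any 1 of DMSO libraries 2 and 3 or carfilzomib libraries 1, 2 and 3 was left out, and the directions rest on labels that HSPA1A contradicts. The other contrasts as labelled called no member in edgeR or DESeq2. Their background was 0% for SHP1705 against DMSO (2244 genes at an unadjusted p under 0.05, 7 called by DESeq2) and 0% for the combination against DMSO (1454 and 1). It was also 0% for the combination against carfilzomib (898 and 1), 0% for the combination against SHP1705 (446 and 2) and 0% for the interaction (3951 and 341). At an unadjusted p under 0.05 stood 1 member (MNT) for SHP1705 against DMSO, 1 (MYC) for the combination against SHP1705, 4 for the interaction and 0 for the combination against DMSO or carfilzomib.

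Without SHP1705 library 1 and combination library 1, a choice made after the values were seen, members were called in all contrasts of that set except the combination against DMSO. DMSO library 1, which also differed from the others of its label, stayed in this fit. Those labelled SHP1705 against those labelled DMSO then gave 6 calls among 5710 of all genes, and carfilzomib against DMSO 6 among 7432. The combination against carfilzomib gave 5 among 4280, the combination against SHP1705 4 among 2384 and the interaction 5 among 7500, so the counts of members rose together with those of all genes. MXD1 in the combination against SHP1705 changed from -0.04 to 1.09 (edgeR, adjusted p = 0.000544). The 24 h minus 8 h differences of a treatment, tested in a fit of all 36 libraries, rest on these labels. They gave 2 calls for SHP1705 (background 2.94% of 17389 genes), 4 for carfilzomib (background 40.1%) and 3 for the combination (background 20.4%).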

How the data were processed

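PolyA RNA of 36 libraries from MDA-MB-231 cells was sequenced in 3 sets of 4 groups with 3 libraries each. The authors deposited 1 table of raw read counts per gene for each set; the submitters' processing notes name Trimmomatic, FastQC, HISAT2, featureCounts and hg38, with no version, annotation or strand setting given in the sources used here. Each table was fitted on its own with edgeR 4.0.16 (TMM factors, filterByExpr, quasi-likelihood test, R 4.3.3) with the 4 groups as terms, and differences between sets in 1 fit of all 36 libraries. P-values were adjusted by the Benjamini-Hochberg method over all genes tested (16591 in the MG132 set, 15577 and 16183 in the carfilzomib sets, 17389 in the joint fit), and called means an adjusted p under 0.05. Errors of log2 fold changes (prior count 0.125) are standard errors derived from the test. Each is the absolute log2 fold change over the square root of the quasi-likelihood F statistic. Intervals are normal intervals from them. Each change is measured against the rest of the library, since total RNA per cell was not measured, and fewer cells and less RNA per cell cannot be told apart.

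CPM values were computed from the counts on TMM library sizes. Named genes were the 7 members, up to 3 genes of each list with the smallest p in the combination of the MG132 set or of the 24 h set and a mean of at least 1 CPM, and the genes nearest to a member. NCL, CEBPA and CDKN2B, and the values of named genes in other comparisons, were chosen after their values were seen. Some genes that this rule names are not reported here. Members and lists were chosen with earlier results of these data known. Alternatives were other scaling factors, no filter, DESeq2 1.42.0, a replicate block, only the groups compared, and leaving out libraries. Promoters came from RefSeq and exons from GENCODE 29.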

Additional observations from a re-analysis of the deposited data

Results flagged for a closer look

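In the joint fit of all 36 libraries, 9 responses of members differed between 24 h and 8 h of the carfilzomib experiments by a test of the difference itself (edgeR, adjusted p under 0.05), each as 24 h minus 8 h on the log2 scale. For SHP1705 these were MNT at -0.86 ± 0.20 (edgeR, adjusted p = 0.0194) and MXD4 at 0.55 ± 0.16 (edgeR, adjusted p = 0.0489). For carfilzomib they were MXD1 at 1.73 ± 0.42, MXD3 at -1.43 ± 0.35, MAX at 0.83 ± 0.20 and MYC at 0.47 ± 0.14. For the combination they were MXD3 at -1.16 ± 0.35, MXD4 at 0.57 ± 0.16 and MYC at 0.39 ± 0.13. Of all genes tested, 2.94% were called for SHP1705, 40.1% for carfilzomib and 20.4% for the combination.

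All 9 use the 8 h libraries as labelled, among which HSPA1A and PER3 go against the labels. The 24 h libraries do not share this: HSPA1A lay between 690 and 1290 CPM in all 12. The differences are therefore values of the labelled groups and were not read as an effect of time.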

How the results depend on the processing

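Over 2023 alternative values of the members' changes, 1875 kept their side of the threshold, 74 lost a call, 73 gained one and 1 reversed. The 1875 include 54 values of uncalled changes whose direction changed. The reversal was MXD1 in the 8 h carfilzomib set, combination against SHP1705, at 1.09 without the first SHP1705 and combination libraries (main -0.04). No alternative changed a member's call in the MG132 set for the combination against DMSO or SHP1705 or the interaction, or at 24 h for the combination against DMSO. Members called with SHP1705 alone in the MG132 set were 2, 1 to 2 with 1 library left out and 0 without the 4 libraries with over 100 POSTN counts. At 24 h they were 1 to 2 (from 2) with 1 library left out for SHP1705, carfilzomib and the combination against carfilzomib, the last also 1 in a fit of only the groups compared, 3 to 4 (from 5) for the combination against SHP1705, and 0 to 1 (from 0) for the interaction, which had 1 with no filter or DESeq2.

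In the 8 h carfilzomib set, counts with no filter were 2 for SHP1705 and for the combination against DMSO, 1 for the combination against carfilzomib and 3 for the interaction, each from 0. Without the first SHP1705 and combination libraries they were 6, 6 (carfilzomib, from 3), 5 (combination against carfilzomib), 4 (against SHP1705) and 5 (interaction), beside 5710, 7432, 4280, 2384 and 7500 of all genes. With 1 library left out they were 0 to 3 for SHP1705 and for carfilzomib and 0 to 4 for the interaction. For 24 h minus 8 h they were 0 to 6 (SHP1705, from 2), 4 to 7 (carfilzomib, from 4) and 1 to 5 (combination, from 3), and 5 with no filter for SHP1705 and the combination.

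Replicate numbers did not pair the libraries: deviations of same-numbered libraries correlated from -0.09 to 0.15 in the MG132 set, -0.66 to 0.23 and -0.05 to 0.05 in the carfilzomib sets. With a replicate block, 0 members were called for carfilzomib at 8 h (from 3) and 0 for SHP1705 at 24 h minus 8 h (from 2), and MXD1 lost its 24 h call against SHP1705 (0.35, adjusted p = 0.0603 in edgeR).

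All genes called moved by over 1.5 times from 1249 to 629 with 1 library left out or 150 without the POSTN libraries (SHP1705, MG132 set). For carfilzomib at 8 h, 3587 became 0 with the block or 1 library left out, 6723 with only the groups compared and 7432 without both libraries. At 24 h, 722 became 1148 (SHP1705, only the groups compared) or 407 (1 left out), 1460 became 860 (combination against carfilzomib, only the groups compared) and 78 became 364 with no filter, 346 with DESeq2 and 19 to 497 with 1 left out (interaction). For SHP1705 at 24 h minus 8 h, 512 became 1675, 1260 with DESeq2, 83 with the block and 81 to 4866 with 1 left out; for the combination 3542 became 2153. Against the MG132 set, 4 became 50, 14 and 2. Counts of 0 in the main fit became, with no filter, 303 for MG132 and, at 8 h with carfilzomib, 1050 (SHP1705), 688 (combination), 502 and 44 (against carfilzomib and SHP1705) and 2337 (interaction). With 1 library left out they reached 71 for MG132 and, at 8 h with carfilzomib, 3683 (SHP1705) and 5098 (interaction). The cause was not tested. MXD1, MXD3 and MNT had the fewest reads behind their values.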
